A study of Mus musculus with 6 samples.

Results

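Fatty acid oxidation and ketone body enzymes were compared between intestines of mouse embryos with and without Klf5, the gene of a zinc-finger transcription factor of epithelia. The group held 31 genes, listed by name and not by a cut on their values, though with earlier results of these data known. A gene was read from the brightest row of the table that carried its symbol alone. This gave values for 30 of the 31 among 19938 genes measured: 18 of 19 mitochondrial, 10 peroxisomal and 2 ketone body genes. The row of Cpt1b, the muscle form of carnitine palmitoyltransferase, carried 2 symbols, so no value is given for it. The Klf5-deleted embryos had the genotype Klf5D/D and the controls Klf5wt/wtShhEGFP/Cre+, both on a mixed strain background that is part C57Bl/6, at embryonic day E14.5. The control genotype names a Cre inserted at Shh, a gene active in gut epithelium, and the label of the Klf5-deleted embryos names no Cre. Each genotype had 3 arrays, each with RNA from a pool of 2 intestines, cut about 1.5 cm anterior to the cecum. The litters behind the pools are not stated, so p-values reflect only how far these pools spread, which may be technical.

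Fatty acids are burnt in mitochondria by a cycle of dehydrogenation, hydration, a further dehydrogenation and thiolysis, after a carnitine shuttle has carried long chains across the mitochondrial membranes, and the electrons pass through the electron transfer flavoprotein to the respiratory chain. Peroxisomes run a parallel cycle on very long and branched chains, in which the first step is an oxidase that makes hydrogen peroxide. Ketone bodies are made from the acetyl-CoA of this pathway, in the liver and in the suckling intestine, and are turned back to acetyl-CoA in other tissues. Nuclear receptors of the PPAR and HNF4 families are known regulators of many of these enzymes.

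In the Klf5-deleted intestines the ketone body dehydrogenase Bdh1 stood at 41.7% of the control level. Of the genes counted as mitochondrial, 7 of 18 were lower by a limma test and 1, Cpt1c, was higher. Of the 10 peroxisomal genes, 0 were lower (0 also at an unadjusted p under 0.05) and 1 was higher (10%). For as few as 10 genes, these counts are near the 8.58% of all genes lower and 8.95% higher. The mitochondrial falls were small, between −0.33 and −0.20 on the log2 scale, with standard errors of 0.04 to 0.06. Calls were made at an adjusted p under 0.05, adjusted by Benjamini-Hochberg over the 19938 genes. Over all 30 genes 8 were lower (26.7%) and 2 higher (6.67%), beside 8.58% of all genes lower and 8.95% higher, or 17.5% in either direction. At an unadjusted p under 0.05, 13.4% of all genes were lower and 17.2% higher, and 42.3% of all genes had a negative difference. The median log2 difference was −0.09 over the mitochondrial genes and 0.05 over the peroxisomal genes, against 0.02 over all genes. The mitochondrial and peroxisomal genes were not tested against each other as groups.

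**Figure D1:**
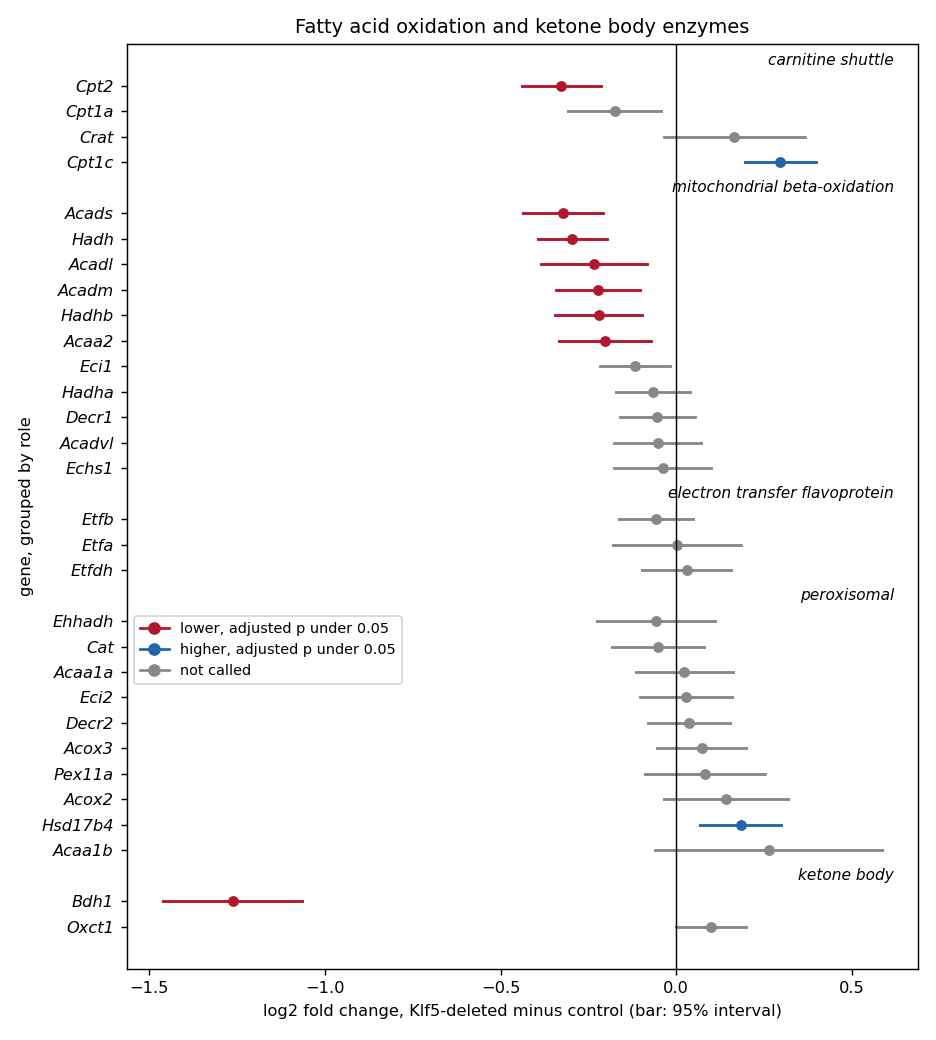
Log2 fold change of the 30 measured genes, Klf5-deleted minus control (x axis), with 95% intervals as bars, sorted within each role (y axis). All 11 mitochondrial beta-oxidation enzymes lie left of 0, the peroxisomal genes lie between −0.06 and 0.26, and Bdh1 at −1.26 stands far from the others.

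The deleted factor belongs to a family known to bind GC-rich sequence, and binding was not tested here. The stretches of DNA before the start sites are shown for some of the genes that moved, picked by hand. They come from RefSeq (GRCm38.p6), run from 250 bases before the start to the base before it, 5′ to 3′ on the strand of the gene, and have in capitals the letters CCCCGCCC, a motif of the KLF type, read on either strand. These are the 2 start regions of Bdh1 and those of Cpt2, Hadh, Acads and Hadhb, which were lower, and of Cpt1c, which was higher and in which AGGTCA is in capitals too. Acadl, which holds CCCCGCCC, and Acadm, which does not, were also lower and are not shown.
Bdh1, chr16:31422047-31422296, plus strand: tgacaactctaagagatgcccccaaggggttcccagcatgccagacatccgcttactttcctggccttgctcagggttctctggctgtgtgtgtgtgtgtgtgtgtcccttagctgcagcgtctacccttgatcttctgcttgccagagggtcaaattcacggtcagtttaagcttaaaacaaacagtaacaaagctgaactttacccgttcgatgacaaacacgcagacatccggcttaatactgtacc
Bdh1, chr16:31428503-31428752, plus strand: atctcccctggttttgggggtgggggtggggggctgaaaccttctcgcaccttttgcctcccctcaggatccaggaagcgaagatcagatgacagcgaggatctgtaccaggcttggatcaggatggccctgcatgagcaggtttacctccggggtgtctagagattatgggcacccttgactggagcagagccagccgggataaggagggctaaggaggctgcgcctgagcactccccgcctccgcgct
Cpt2, chr4:107923590-107923839, minus strand: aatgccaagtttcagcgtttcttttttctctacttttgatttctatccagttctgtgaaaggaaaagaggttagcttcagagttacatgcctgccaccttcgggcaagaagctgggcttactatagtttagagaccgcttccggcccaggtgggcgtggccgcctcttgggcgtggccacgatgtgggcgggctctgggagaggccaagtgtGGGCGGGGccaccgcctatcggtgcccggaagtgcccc
Hadh, chr3:131272102-131272351, minus strand: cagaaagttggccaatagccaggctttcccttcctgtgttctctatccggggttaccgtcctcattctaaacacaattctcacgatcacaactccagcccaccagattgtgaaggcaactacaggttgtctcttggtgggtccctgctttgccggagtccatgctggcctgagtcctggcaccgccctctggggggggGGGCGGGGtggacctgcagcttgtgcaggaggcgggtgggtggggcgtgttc
Acads, chr5:115119347-115119596, minus strand: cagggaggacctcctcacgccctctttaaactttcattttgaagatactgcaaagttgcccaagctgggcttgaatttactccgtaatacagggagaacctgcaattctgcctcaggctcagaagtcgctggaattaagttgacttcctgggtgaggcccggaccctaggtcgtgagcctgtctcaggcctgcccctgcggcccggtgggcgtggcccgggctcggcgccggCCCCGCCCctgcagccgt
Hadhb, chr5:30155003-30155252, plus strand: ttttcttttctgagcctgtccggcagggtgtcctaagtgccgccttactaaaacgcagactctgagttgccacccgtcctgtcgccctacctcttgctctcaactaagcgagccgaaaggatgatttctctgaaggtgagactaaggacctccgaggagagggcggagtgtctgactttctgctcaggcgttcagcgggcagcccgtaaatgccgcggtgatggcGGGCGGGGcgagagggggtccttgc
Cpt1c, chr7:44974852-44975101, minus strand: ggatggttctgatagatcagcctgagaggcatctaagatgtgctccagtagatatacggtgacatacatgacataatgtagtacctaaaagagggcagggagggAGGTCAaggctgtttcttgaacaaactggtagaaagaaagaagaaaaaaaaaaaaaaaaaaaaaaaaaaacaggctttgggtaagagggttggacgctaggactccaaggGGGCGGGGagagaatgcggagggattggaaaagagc

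Promoter entries were matched for 26 of the 31 genes, in 28 windows, and none was matched for Crat, Hsd17b4, Decr1, Cpt1b and Acaa2. CCCCGCCC was found in 13 of the 28 windows (46.4%), against 16.1% of the 32851 windows of the whole table. The windows of the whole table were not matched to these genes for expression or GC content, so the shares are not like for like. It lay in 5 of 8 windows of genes that were lower (62.5%: Cpt2, Hadh, Acads, Hadhb and Acadl) and in 8 of 20 windows of the others (40%). Its first base was 38 bases before the start in Cpt2, 52 in Hadh, 18 in Acads, 25 in Hadhb and 36 in Cpt1c. Neither window of Bdh1 held it. CCACACCC, the other KLF-type motif searched, was found in Acadm alone, 1 of 28 windows (3.57%) against 3.2% of all windows. The hexamer of nuclear receptors, AGGTCA, was in 6 of 28 windows (21.4%) against 14% of all, and in 1 of the 8 windows of lower genes (12.5%). Its direct repeat with 1 base between the copies, which holds that hexamer at both ends, was in 0 windows of these genes and 0.0335% of all. CAAAGTCCA, an HNF4-type motif, was in 0 and 0.384%. The motifs were read on both strands and are a description of these windows alone. Hadha and Hadhb, which encode both subunits of the mitochondrial trifunctional protein, are divergent neighbours on chromosome 5 with 272 bases between their starts. Their windows share 228 bases, so they are not independent. The CCCCGCCC counted for Hadhb, which was lower, runs past the far end of the Hadha window. Hadha, which was not called, is therefore counted without it only because of the 250-base cut.

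Klf5 itself read 10.24, 10.49 and 10.34 log2 units in the Klf5-deleted arrays, against 11.55, 11.74 and 11.77 in the controls. It was lower in all 3 deleted arrays, by 1.33 (SE 0.08, limma adjusted p = 9.62e-05), or 39.8% of the control level. The deleted exons are not named in the labels, so whether these probes lie in the deleted part is unknown here, and the segments held other tissue layers beside epithelium. Array medians lay between 7.81 and 7.89. Epithelial markers moved with genotype: 25 of 27 pan-epithelial genes were lower, led by Elf3 (−3.28) and Cdh17 (−2.16), and 1 was higher, with a median of −0.93. Their summed signal was 14.80 to 15.02 in the deleted arrays against 15.88 to 15.93 in the controls. In bulk tissue, fewer cells of a type and less RNA per cell cannot be told apart. Liver markers, which share much of this metabolism, spanned 12.13 to 13.95 in the deleted arrays, where replicate 1 was lowest and replicate 2 highest of the 6, against 12.74 to 13.34 in the controls. By limma 0 of the 13 passed, and 0 had an unadjusted p under 0.05. Fibroblast and mesenchyme markers had 6 of 16 higher, led by Twist2 (0.44) and Fn1 (0.29), and 0 lower (10 and 0 at an unadjusted p under 0.05), at 16.07 to 16.14 against 15.93 to 15.97. Mesothelium markers had 5 of 8 higher and 2 lower, with a median of 0.57, at 13.17 to 13.52 against 13.04 to 13.27, and their largest changes were those of Krt19 (−1.52), which is also a pan-epithelial marker, and Bnc1 (1.05). The part of either list in the rises given below was not tested. The sex of the pools also moved with genotype: Y-linked Eif2s3y read 10.32, 10.29 and 10.15 in the deleted arrays against 5.38, 9.32 and 8.84 in the controls, and Xist read 5.89 to 6.47 against 11.93 to 12.61. A male share was set from 3 Y-linked genes, with 0% fixed at the lowest array, control 1, and 100% at the mean of the deleted arrays; controls 2 and 3 lay at 47.1% and 40.8% of that scale. With this share as a term in the fit, the 8 lower genes stayed negative, the standard error over the 30 genes grew 2.69-fold (median) and 0 of the 30 genes were called, with 83 calls among all genes. Acadm moved from −0.22 to −0.10 and Hadhb from −0.22 to −0.35. Of the other genes named here as past the test, Klf5, Fabp2, Acsm3, Hnf4a, Elf3, Slc5a1 and Xist kept their calls in that fit and the rest lost them, among them Cox5a, a respiratory chain subunit (−0.24 to −0.08).

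Bdh1 encodes the mitochondrial dehydrogenase that interconverts acetoacetate and 3-hydroxybutyrate. Its signal was 9.04, 9.31 and 9.36 log2 units in the Klf5-deleted arrays, against 10.44, 10.55 and 10.51 in the controls. All 3 deleted arrays lay below all 3 controls, and the controls spanned only 0.11. The log2 difference was −1.26 (SE 0.09, 95% interval −1.46 to −1.06, limma adjusted p = 1.30e-04). A fall of 2-fold or more that passed the test was seen in 1.13% of all genes. An exact two-sided permutation test over the 6 arrays gave p = 0.1, the smallest that 3 arrays against 3 allow. The call held in each of the 6 fits that left out 1 array. With the male share as a term the difference was −1.35 (limma adjusted p = 0.0897). Of the 27 pan-epithelial markers, 5 had a larger fall than Bdh1. The part of the epithelial markers' fall in this was not tested.

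Oxct1 encodes the mitochondrial transferase with which tissues use ketone bodies. It read 10.85, 10.84 and 10.79 in the Klf5-deleted arrays, against 10.71, 10.74 and 10.73 in the controls. The deleted arrays were all higher, by 0.10 (SE 0.04, 95% interval −0.00 to 0.20, limma adjusted p = 0.169), and the difference did not pass the test. Bdh1 and Oxct1 thus had values on opposite sides of the controls.

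A list of 13 other genes of ketone body handling had 10 measured, of which 5 were lower and 3 higher, with a median log2 difference of −0.17. The falls included plasma membrane carriers of lactate and ketone bodies. Slc16a3 fell by 0.59 (SE 0.09, limma adjusted p = 0.00542) and Slc16a1 by 0.49 (SE 0.06, limma adjusted p = 0.00227). Aacs, the cytosolic enzyme that activates acetoacetate for lipid synthesis, read 9.60, 9.59 and 9.65 in the deleted arrays, against 10.15, 10.07 and 10.14 in the controls. Its groups were well apart, with a log2 difference of −0.51 (SE 0.05, limma adjusted p = 4.42e-04). The remaining falls, named after their values were seen, were those of the carrier Slc16a6 (−0.38) and of the acetate-activating enzyme Acss2 (−0.28, SE 0.08, limma adjusted p = 0.0435). Acss2 lost its call without any array but deleted replicate 2 (−0.29 to −0.22, adjusted p 0.0862 to 0.136).

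The rises among these genes were of Hmgcll1, Bdh2 and Slc16a7. Hmgcll1, an HMG-CoA lyase outside the mitochondrion, read 8.19, 8.24 and 7.91 in the deleted arrays, against 7.43, 7.25 and 7.47 in the controls. Every deleted array was above every control, by 0.73 on average (SE 0.10, limma adjusted p = 0.00315). Bdh2, a cytosolic dehydrogenase named for the same reaction as Bdh1, read 8.90, 8.63 and 8.48 against 8.16, 7.96 and 8.17. Its difference of 0.57 (SE 0.11, limma adjusted p = 0.0116) was opposite in sign to that of Bdh1. Slc16a7, a further monocarboxylate carrier, differed by 0.27 (SE 0.06, limma adjusted p = 0.0196), and lost its call without deleted replicate 2 (0.23, adjusted p = 0.0555), control replicate 1 (0.23, 0.0615) or control replicate 2 (0.26, 0.0716). Acat1 (−0.06, adjusted p = 0.598), a mitochondrial thiolase of ketone body and isoleucine metabolism, and Oxct2a (0.13, adjusted p = 0.324), a relative of Oxct1 known from testis, did not pass the test.

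**Figure D2:**
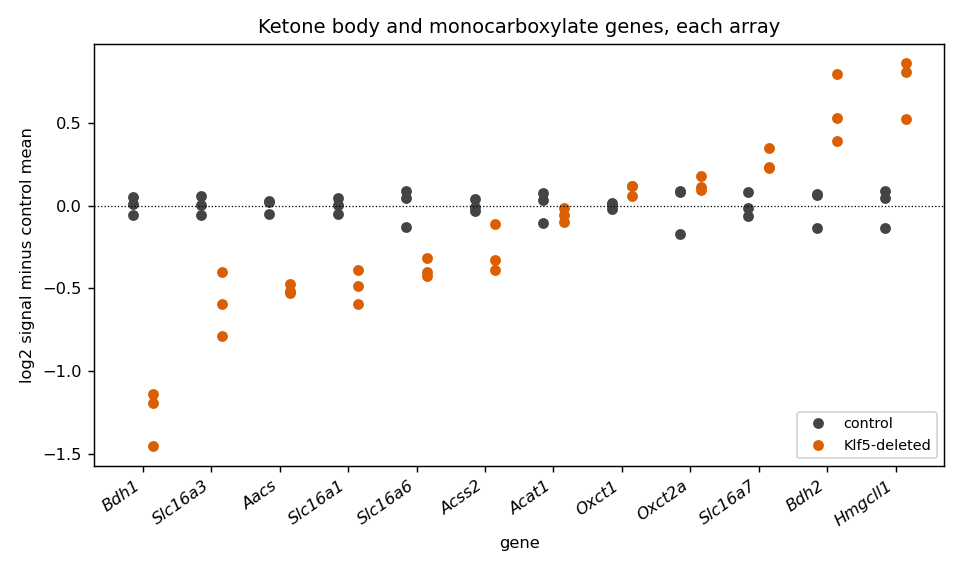
Log2 signal of each array minus the control mean of the gene (y axis) for Bdh1, Oxct1 and the 10 measured genes of the list (x axis), with controls in grey and Klf5-deleted arrays in orange. Bdh1 lies more than 1 log2 unit below its controls, 5 genes lie lower by 0.28 to 0.59, and Slc16a7, Bdh2 and Hmgcll1 lie above.

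The genes listed under the carnitine shuttle moved in both directions, with 1 of 4 lower, 1 higher and a median of −0.01. Cpt2, the carnitine palmitoyltransferase of the inner membrane, read 10.48, 10.41 and 10.45 in the Klf5-deleted arrays, against 10.71, 10.80 and 10.80 in the controls. All deleted arrays were lower, at 79.7% of the control level (−0.33, SE 0.05, 95% interval −0.44 to −0.22, limma adjusted p = 0.00405). Cpt1c, a relative of the outer membrane enzyme, is known chiefly from neurons and is counted with the shuttle by its name. It read 9.71, 9.69 and 9.67 against 9.42, 9.40 and 9.35. It was higher in every deleted array, at 123% of the control level (0.30, SE 0.04, limma adjusted p = 0.00404). Neuron and glia markers had 2 of 12 genes higher, Gfra1 (0.47) and Sox10 (0.39), and 0 lower (5 and 1 at an unadjusted p under 0.05), and their summed signal was 14.36 to 14.53 in the deleted arrays against 14.24 to 14.28 in the controls. Their part in the rise of Cpt1c was not tested.

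Cpt1a, the form of the outer membrane enzyme best known from liver and gut, read 10.39, 10.42 and 10.56 in the deleted arrays, against 10.60, 10.66 and 10.64 in the controls. The groups did not overlap, yet the difference of −0.18 (SE 0.06, 95% interval −0.31 to −0.04, limma adjusted p = 0.0769) missed the threshold. Without deleted replicate 3 it passed (−0.23, limma adjusted p = 0.0381). Crat, which exchanges short acyl groups with carnitine, read 10.70, 10.51 and 10.85 against 10.52, 10.48 and 10.57. Its groups overlapped and the difference was 0.16 (SE 0.09, limma adjusted p = 0.252), while without deleted replicate 2 it passed as a rise (0.26, limma adjusted p = 0.0483).

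The enzymes of the mitochondrial cycle leaned one way: all 11 had a negative log2 difference, 6 passed the test as lower and 0 as higher (at an unadjusted p under 0.05, 7 and 0). Their median was −0.20. Relative to the control mean, the median of these 11 genes was −0.19, −0.13 and −0.16 in the 3 deleted arrays, and 0.00, −0.02 and 0.02 in the controls. The same measure over the pan-epithelial markers was −1.05, −0.88 and −0.87 in the deleted arrays. Both fell on the same arrays, and the part of the epithelial markers' fall in that of the enzymes was not tested.

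The acyl-CoA dehydrogenases make the first double bond, and 4 forms divide the substrates by chain length. The short-chain form, Acads, read 10.49, 10.60 and 10.48 in the Klf5-deleted arrays, against 10.87, 10.84 and 10.83 in the controls. The groups were apart, with the deleted arrays at 80.0% of the control level (−0.32, SE 0.05, limma adjusted p = 0.00469). Medium-chain Acadm read 11.10, 11.09 and 11.03 against 11.35, 11.22 and 11.31. Its groups were closer but did not overlap (−0.22, SE 0.05, 95% interval −0.34 to −0.10, limma adjusted p = 0.0233). Long-chain Acadl read 10.36, 10.48 and 10.26 against 10.57, 10.58 and 10.65, with deleted replicate 2 nearest to the controls. Its difference was −0.23 (SE 0.06, limma adjusted p = 0.0449). The very-long-chain form, Acadvl, had overlapping groups at 9.28, 9.42 and 9.40 against 9.46, 9.40 and 9.41 (−0.05, SE 0.05, 95% interval −0.18 to 0.07, limma adjusted p = 0.582).

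Hadh, the short-chain hydroxyacyl-CoA dehydrogenase of the matrix, had narrow groups. It read 12.51, 12.54 and 12.52 in the deleted arrays, against 12.82, 12.84 and 12.78 in the controls. Deleted arrays stood at 81.5% of the control level (−0.30, SE 0.04, limma adjusted p = 0.00357). Acaa2, the thiolase that closes the cycle, read 11.89, 12.05 and 12.04 against 12.16, 12.22 and 12.22. It was lower by 0.20 (SE 0.06, limma adjusted p = 0.046), with deleted replicate 1 lowest.

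The trifunctional protein, which carries long chains through the last 3 steps, had its subunits on different sides of the threshold. The beta subunit, Hadhb, read 10.80, 10.74 and 10.81 against 10.94, 10.99 and 11.09 in the controls. No deleted array reached the controls (−0.22, SE 0.05, limma adjusted p = 0.0277). A second row of the table for Hadhb gave −0.21 (SE 0.05). The alpha subunit, Hadha, read 11.93, 11.86 and 11.88 against 11.93, 11.96 and 11.99, which overlapped (−0.07, SE 0.04, 95% interval −0.17 to 0.04, limma adjusted p = 0.386). The difference between the subunits was not tested.

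The other enzymes of the mitochondrial cycle did not pass the test. Eci1, an isomerase for unsaturated chains, read 10.46, 10.46 and 10.49 in the deleted arrays, against 10.61, 10.55 and 10.61 in the controls, without overlap (−0.12, SE 0.04, 95% interval −0.22 to −0.02, limma adjusted p = 0.104). The hydratase Echs1 differed by −0.04 (SE 0.06, limma adjusted p = 0.732). Decr1, a reductase for unsaturated chains, differed by −0.05 (SE 0.05, limma adjusted p = 0.503).

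The calls of the smaller falls rested on all arrays being present. Acads, Hadh, Cpt2, Bdh1 and the rise of Cpt1c kept their calls in each of the 6 fits without 1 array. Acaa2 lost its call whichever array was left out (−0.23 to −0.15, adjusted p 0.0589 to 0.138). Acadl lost it without any array except deleted replicate 2 (−0.25 to −0.18, adjusted p 0.0863 to 0.137), and Hadhb without any except control replicate 1 (−0.23 to −0.18, adjusted p 0.0561 to 0.0799). Acadm lost it without deleted replicate 2 or 3 or control replicate 1 or 3 (−0.23 to −0.20, adjusted p 0.0529 to 0.0817). The count of lower mitochondrial genes was therefore 3 or 4 in these fits in place of 7, and all the values stayed negative.

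**Figure D3:**
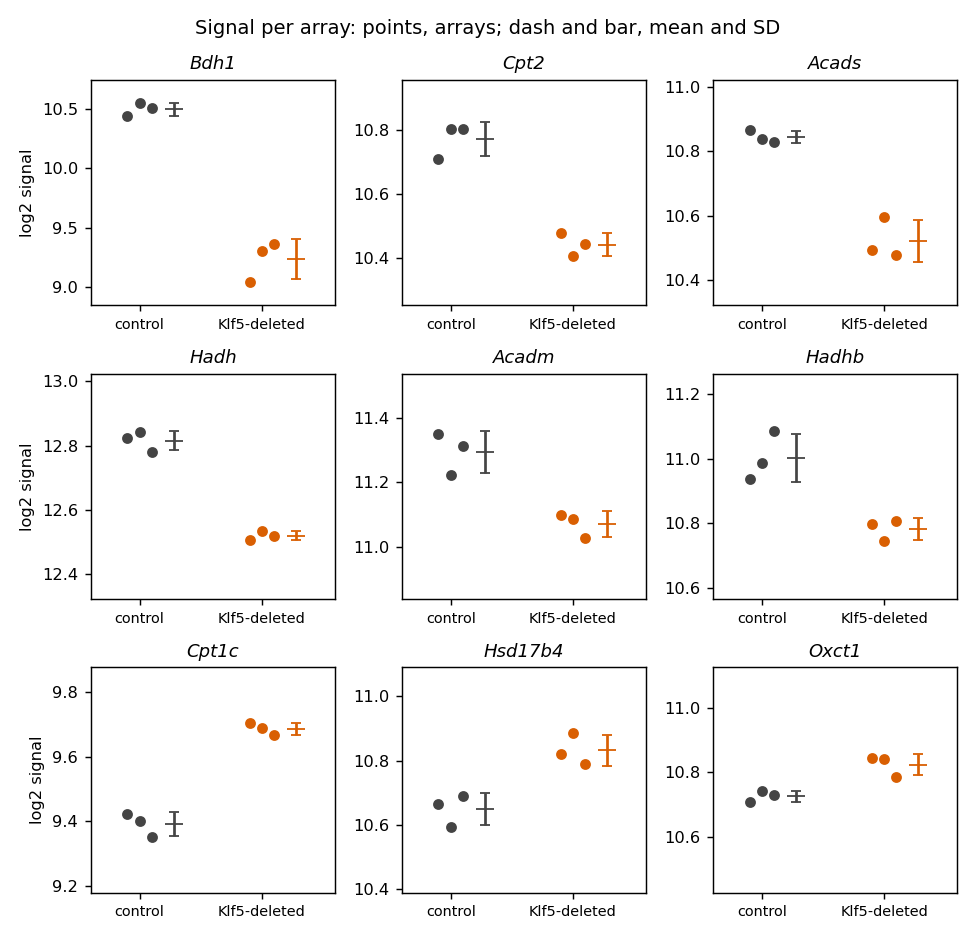
Log2 signal per array (y axis) of 9 genes in control and Klf5-deleted intestines (x axis); points are arrays, and dashes with bars are means with SD (n = 3). Each panel spans the same range except that of Bdh1, which is wider; 6 genes sit lower in the deleted arrays, and Cpt1c, Hsd17b4 and Oxct1 sit higher, Oxct1 without passing the test.

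The electron transfer flavoprotein takes electrons from the acyl-CoA dehydrogenases, and 0 of its 3 genes passed the limma test in either direction (0 at an unadjusted p under 0.05). Its alpha subunit Etfa differed by 0.00 (SE 0.08, 95% interval −0.18 to 0.18, limma adjusted p = 0.994), with control replicate 3 highest of the 6 arrays at 11.24. The beta subunit Etfb differed by −0.06 (SE 0.05, limma adjusted p = 0.454) and the oxidoreductase Etfdh by 0.03 (SE 0.05, limma adjusted p = 0.782). The intervals of all 10 mitochondrial genes that were not called lay between −0.31 and 0.37.

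In the peroxisome, Hsd17b4 was the only one of the 10 genes to pass the test, and it was higher. It encodes the second enzyme of the cycle for branched and very long chains, with hydratase and dehydrogenase activity. Its signal was 10.82, 10.89 and 10.79 in the Klf5-deleted arrays, against 10.66, 10.59 and 10.69 in the controls. The groups did not overlap, and the difference was 0.18 (SE 0.05, 95% interval 0.07 to 0.30, limma adjusted p = 0.0423), or 114% of the control level. This call was lost whichever array was left out (0.16 to 0.20, adjusted p 0.0716 to 0.141) and when arrays were centred on their medians (0.16, adjusted p = 0.124).

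Ehhadh, the bifunctional enzyme for straight chains and a well-known PPAR target, read 8.06, 8.11 and 8.09 in the deleted arrays, against 8.26, 7.99 and 8.18 in the controls. Its groups overlapped (−0.06, SE 0.07, limma adjusted p = 0.673). The oxidases of branched chains differed by 0.14 for Acox2 (SE 0.08, limma adjusted p = 0.269) and 0.07 for Acox3 (SE 0.05, limma adjusted p = 0.442). Of the thiolases, Acaa1a differed by 0.02 (SE 0.06, limma adjusted p = 0.848). Acaa1b, whose mean signal lay at the 10.4th percentile of all genes, read 5.42, 5.82 and 5.83 in the deleted arrays, against 5.24, 5.38 and 5.65 in the controls. Those groups overlapped, and its interval was the widest of the 30 genes (0.26, 95% interval −0.06 to 0.59, limma adjusted p = 0.259). Acox2 and Ehhadh were also fairly dim, at the 28.4th and 42.7th percentiles. The dimmest enzyme of the mitochondrial cycle, Acadvl, lay at the 61.3rd.

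The auxiliary enzymes Decr2 and Eci2, which handle unsaturated chains in peroxisomes, differed by 0.04 (SE 0.05) and 0.03 (SE 0.06). Catalase, Cat, which removes the hydrogen peroxide of the oxidases, read 12.41, 12.25 and 12.42 in the deleted arrays, against 12.41 in each control. Only deleted replicate 2 stood below the controls (−0.05, SE 0.06, limma adjusted p = 0.613). Pex11a, a membrane protein of peroxisome division, read 8.87, 8.73 and 8.58 against 8.66, 8.62 and 8.65 (0.08, SE 0.07, limma adjusted p = 0.538). For the 9 peroxisomal genes that did not pass, the 95% intervals reached no lower than −0.23, the bound of Ehhadh, and no higher than 0.32 apart from Acaa1b. Relative to the control mean, the median over the 10 genes was 0.08, 0.03 and 0.04 in the deleted arrays. That of the mitochondrial cycle, given above, was negative in each of the same arrays.

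Groups of arrays that did not overlap were also counted. Among the mitochondrial genes, 9 of 18 had every deleted array below every control and 1 had the reverse, and among the peroxisomal genes the counts were 0 and 1 of 10. Over all 30 genes they were 10 and 3, beside 15.9% of all genes lower and 20.1% higher by this measure.

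Genes around the pathway were read from lists of related enzymes and regulators. Of 22 measured genes of fatty acid uptake and activation, 6 were lower and 1 higher, with a median of −0.03. The falls were led by intracellular fatty acid carriers: Fabp2 read 7.92, 7.92 and 8.05 in the deleted arrays, against 10.61, 10.80 and 10.81 in the controls, at 14.6% of the control level (−2.78, SE 0.07, limma adjusted p = 3.56e-06). Fabp1 differed by −2.22 (SE 0.18, limma adjusted p = 2.51e-04) and Acsm3, a medium-chain acyl-CoA synthetase, by −1.89 (SE 0.10, limma adjusted p = 4.24e-05). Fabp1 and Fabp2 also stand in the enterocyte marker list, of which 11 of 14 were lower, Fabp2 and the glucose carrier Slc5a1 (−2.28) the most. Slc27a1, a fatty acid transport protein, was higher by 0.27 (SE 0.07, limma adjusted p = 0.0342), a call lost without deleted replicate 1 or 2 or control replicate 2 or 3 (0.22 to 0.28, adjusted p 0.0623 to 0.114). Slc25a20, the acylcarnitine carrier between Cpt1 and Cpt2, differed by −0.01 and was named after its value was seen. Acsl1 and Acsl3 were not analysed here.

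A list of other acyl-CoA enzymes, mostly mitochondrial, had 4 of 21 lower and 0 higher (7 and 0 at an unadjusted p under 0.05). Acot13, a thioesterase, differed by −0.46 (SE 0.08, limma adjusted p = 0.00881). Mcee, of the route from propionyl-CoA to succinyl-CoA, differed by −0.34 (SE 0.06, limma adjusted p = 0.0111). Echdc1, a decarboxylase that clears ethylmalonyl-CoA, also differed by −0.34 (SE 0.07, limma adjusted p = 0.0167), and lost its call without replicate 3 of either group (−0.34 to −0.33, adjusted p 0.0588 to 0.0602).

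A separate list of 25 other peroxisomal lipid enzymes, unlike the 10 genes above, held falls, with 5 lower (20%) and 1 higher (4%). Of all genes, 8.58% were lower and 8.95% higher. Pipox, which oxidises pipecolic acid and sarcosine, stood at 51.9% of the control level (−0.95, SE 0.11, limma adjusted p = 0.00119). Acot4, a thioesterase, differed by −0.63 (SE 0.08, limma adjusted p = 0.0017) and Nudt19, a CoA hydrolase, by −0.53 (SE 0.06, limma adjusted p = 0.00127). Abcd2, a transporter of very-long-chain acyl-CoA into the peroxisome, read 8.64, 8.55 and 8.56 in the deleted arrays, against 7.89, 7.92 and 8.06 in the controls. It was higher in every deleted array (0.63, SE 0.06, limma adjusted p = 5.12e-04). Of 12 peroxisome assembly genes, 0 passed the limma test in either direction, with differences from −0.18 to 0.22; at an unadjusted p under 0.05, 3 were lower and 1 higher.

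Regulators of the pathway had 8 of 22 lower and 1 higher, with a median of −0.05. Hnf4a, a nuclear receptor of gut and liver epithelium, read 9.96, 10.19 and 10.25 in the deleted arrays, against 12.06, 12.14 and 12.10 in the controls. It stood at 25.5% of the control level (−1.97, SE 0.08, limma adjusted p = 1.42e-05), and its relative Hnf4g at 25.9% (−1.95, SE 0.12, limma adjusted p = 9.62e-05). Pparg differed by −1.20 (SE 0.18, limma adjusted p = 0.0045). Ppara, the receptor most tied to fatty acid oxidation, read 8.10, 8.14 and 8.16 against 8.61, 8.77 and 8.59 (−0.53, SE 0.06, limma adjusted p = 0.00118). The estrogen-related receptors Esrrg and Esrra differed by −0.88 and −0.32, and the coactivator Ppargc1b by −0.54. These last 4 genes were named after their values were seen. The coactivator Ppargc1a went the other way, by 0.32 (SE 0.06, limma adjusted p = 0.0144), and lost its call without control replicate 2 (0.28, adjusted p = 0.0565) or 3 (0.30, 0.0564). Pan-epithelial markers had a median of −0.93 and enterocyte markers of −1.46, and their part in the falls of these regulators was not tested. A link from the regulators to the enzymes was not tested either.

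Known PPAR targets outside the pathway had 2 of 22 lower (9.09%) and 1 higher (4.55%), near or below the 8.58% and 8.95% of all genes, with a median of 0.01. Acot1, a cytosolic thioesterase, had the largest fall, to 58.5% of the control level (−0.77, SE 0.05, limma adjusted p = 1.08e-04), and Pnpla2, the lipase that starts the breakdown of triglyceride, differed by −0.48 (SE 0.04, limma adjusted p = 3.37e-04). Lipe, hormone-sensitive lipase, was higher by 0.17 (SE 0.05, limma adjusted p = 0.038) and lost its call whichever array was left out (0.16 to 0.20, adjusted p 0.0527 to 0.114).

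Of the downstream mitochondrial machinery, the citric acid cycle had 1 of 20 genes lower (5%, beside 8.58% of all genes), although 16 had a negative difference (42.3% over all genes). Suclg2, a subunit of a succinyl-CoA ligase, differed by −0.27 (SE 0.05, limma adjusted p = 0.0126), or −0.24 without control replicate 2 (adjusted p = 0.0528). Of 30 respiratory chain subunits, 27 had a negative difference, 6 were lower (20%) and 0 higher (14 and 0 at an unadjusted p under 0.05), with a median of −0.12. The largest falls were those of Cox5a (−0.24), Ndufa9 (−0.23) and Cyc1 (−0.23), each with an SE of 0.05. Ndufa9 lost its call without control replicate 3 (−0.22, adjusted p = 0.0561), Cyc1 without deleted replicate 3 or control replicate 2 or 3 (−0.22 to −0.20, adjusted p 0.0611 to 0.0706), and Cox5a without any array but control replicate 3 (−0.25 to −0.20, adjusted p 0.0538 to 0.0855). These falls were of the same order as those of Acadm, Acadl, Hadhb and Acaa2. A difference between the oxidation enzymes and the respiratory chain was not tested.

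**Figure D4:**
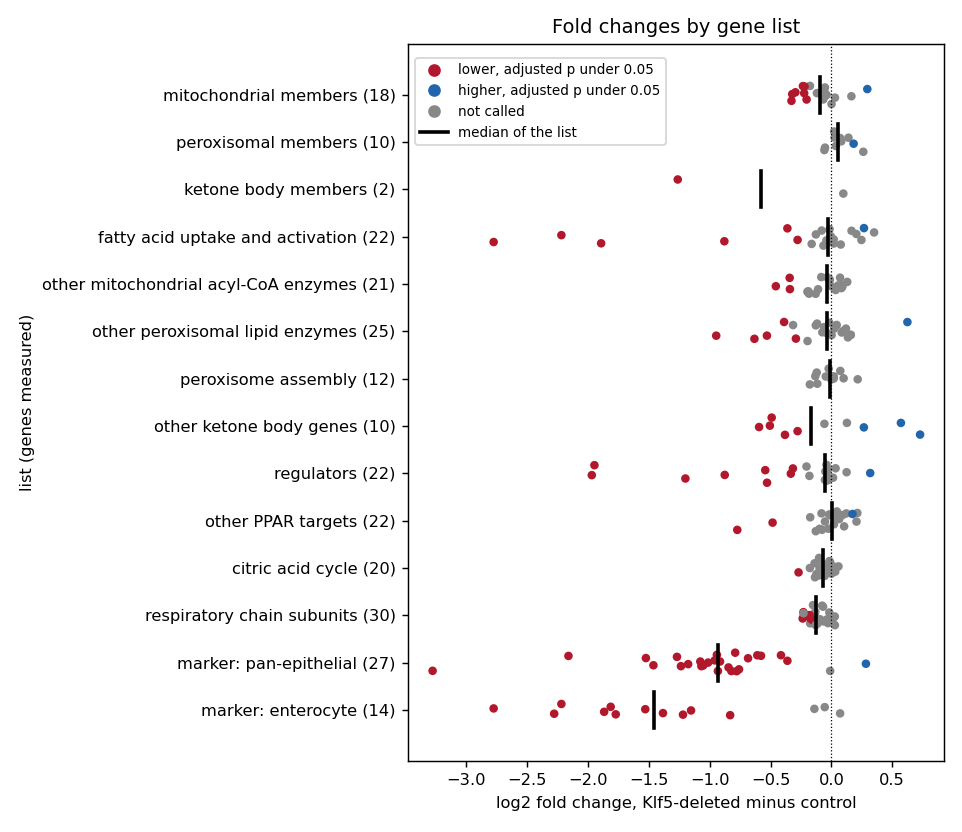
Log2 fold change, Klf5-deleted minus control (x axis), of each measured gene by list (y axis, number of genes in brackets); black lines are medians and colours give the call. Pan-epithelial and enterocyte markers have medians of −0.93 and −1.46, while the medians of the metabolic lists drawn, in which all mitochondrial genes are pooled, lie, apart from that of the pair of ketone body genes, between −0.17 and 0.05.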

How the data were processed

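Gene expression in 6 pools of embryonic mouse intestine was read on Affymetrix Mouse Gene 1.0 ST arrays. The authors deposited log2 signals, for which the submitters' processing notes name RMA and Affymetrix Expression Console 1.1. RMA corrects background, equalises the distributions of the arrays and summarises the probes of a transcript, so a shift shared by most genes is lost. No genome build for the array is given in the sources used here. Of 35557 rows, 21789 carried 1 gene symbol, updated through RefSeq (GRCm38.p6, 21698 matched), and the brightest row was kept for 999 genes with several, which left 19938 genes with no filter on level.

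Groups came from the sample titles. Differences are Klf5-deleted minus control, from limma 3.58.1 (lmFit, eBayes) in R 4.3.3, and the script was tested on simulated data. The genes and lists were chosen with earlier results of these data known. All 31 genes were named, and of each further list up to 3 falls and 3 rises past the threshold (2 changes of each marker list described). Alternatives were each array left out, a replicate block, quantile normalization, median centring, the lowest 25% or 50% of genes left out, trend with robust variance, array weights, the mean of all rows, a threshold of 0.1 and the male share. Arrays have no read depth, and their number limits the precision.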

Additional observations from a re-analysis of the deposited data

How the results depend on the processing

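Leaving out 1 array at a time, the count of lower genes was 4 to 5 in place of 8, of lower mitochondrial genes 3 to 4 in place of 7, of higher genes 1 to 2 in place of 2, of higher mitochondrial genes 1 to 2 in place of 1, and of higher peroxisomal genes 0 in place of 1. Same-numbered arrays of the 2 groups did not deviate together (correlations of −0.14, −0.27 and −0.03 over genes), so no sign of pairing was seen. With 3 arrays per group this could not exclude a shared litter or processing day. With the replicate block the counts were 4 lower and 1 higher, 3 lower among mitochondrial genes and 0 higher among peroxisomal genes. Centring on the median left 1 higher gene and 0 higher peroxisomal genes. With the male share as a term every count was 0. The counts under the other alternatives stayed within 1.5 times, and no peroxisomal gene was lower in any of them. Bdh1 ranged from −1.35 to −1.17.

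Signs changed only for genes that were not called. Without 1 array at a time, Etfa ranged from −0.0525 to 0.0793, Etfdh from −0.003 to 0.0661, Eci2 from −0.0123 to 0.0739, Acaa1a from −0.0181 to 0.0755, Ehhadh from −0.1347 to 0.002, Cat from −0.0807 to 0.0016 and Slc25a20 from −0.064 to 0.013. Etfa was −0.0196 after centring and −0.0142 with array weights. With the male share, Etfa was −0.0725, Acadvl 0.0513, Eci2 −0.0268, Acaa1b −0.048, Ehhadh 0.25 and Acat1 0.11. The causes were not tested.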
